A study of Eleocharis dulcis with 24 samples.

Results

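Corms of cultivated and wild Eleocharis dulcis, the Chinese water chestnut, were compared from the start of swelling to maturity. Within set level limits, the 150 genes described here were those whose RNA values, as deposited, moved least across these corms. They were selected on the measured values themselves: among genes with an identifier that begins with EdulChr, a transcripts-per-million value (TPM, a gene's length-corrected share of a library) of at least 20 in all 24 libraries and every group mean under 2000 TPM were required, and the 150 with the smallest standard deviation (SD) of log2(TPM + 1) over the 24 libraries were taken. The level limits left 2105 genes of 33415 with such an identifier, and of 35975 genes in all, so that the 150 were set against 1955 other genes of the same level range. Because the values chose the genes, how little they varied is a property of the choice, and their levels are given below as a description.

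Corms were sampled from cultivated plants at initial swelling, middle swelling, late swelling and maturity, and from wild plants at the same 4 stages, with 3 biological replicates for each of the 8 groups. No treatment or altered allele is named in the labels, and nothing there gives the plant line, the growing site or a batch, so that origin cannot be told apart from any of these. Each library was made from total RNA of corm tissue, in which fewer cells of a type and less RNA per cell cannot be told apart.

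Genes of even level are usually sought among the housekeeping functions that every living cell uses, such as protein synthesis and turnover, the cytoskeleton and vesicle traffic. They serve as internal references in quantitative PCR, where the level of another gene is read relative to theirs. A swelling corm is a demanding tissue for such a reference, since it changes from dividing and expanding cells into a store of starch. No table used here pairs the identifiers with gene names, so that none of the 150 genes is given a function and the usual reference genes were not looked up among them.

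Column totals were equal within rounding, and TPM keeps no sequencing depth, so that precision is taken from the 3 replicates alone. The 10 genes with the highest values of a library held 42.1 to 42.4% of the TPM in wild maturity corms, 29.6 to 30.7% in cultivated maturity corms and 7.12 to 7.57% in wild initial corms. Cultivated initial replicate 3 stood apart from its group: the 150 genes summed to 16563 TPM in it, against 18488 and 18419 TPM in replicates 1 and 2. Its 10 highest genes held 18.7% of the TPM, against 14.2 and 13.8% in the same replicates. When the choice was repeated without that library, 141 of the 150 genes were chosen again, and the median difference of the 150 genes in cultivated corms, maturity minus initial, was -0.24 (log2), against -0.18 with it.

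Over the 24 libraries the 150 genes had SDs of 0.173 to 0.347 on the log2(TPM + 1) scale, with a median of 0.302. The other 1955 genes of the level range had SDs of 0.348 to 2.23 and a median of 0.684. In plain terms, the highest library of a chosen gene held 1.55 to 2.81 times the TPM of its lowest library, with a median of 2.04. That ratio stayed under 2 in 65 of the 150 genes, and in 2 of the other 1955. Between the 8 group means the 150 genes spanned 0.45 to 1.23 log2 units, and 36 of them spanned at least 1.

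**Figure D1:**
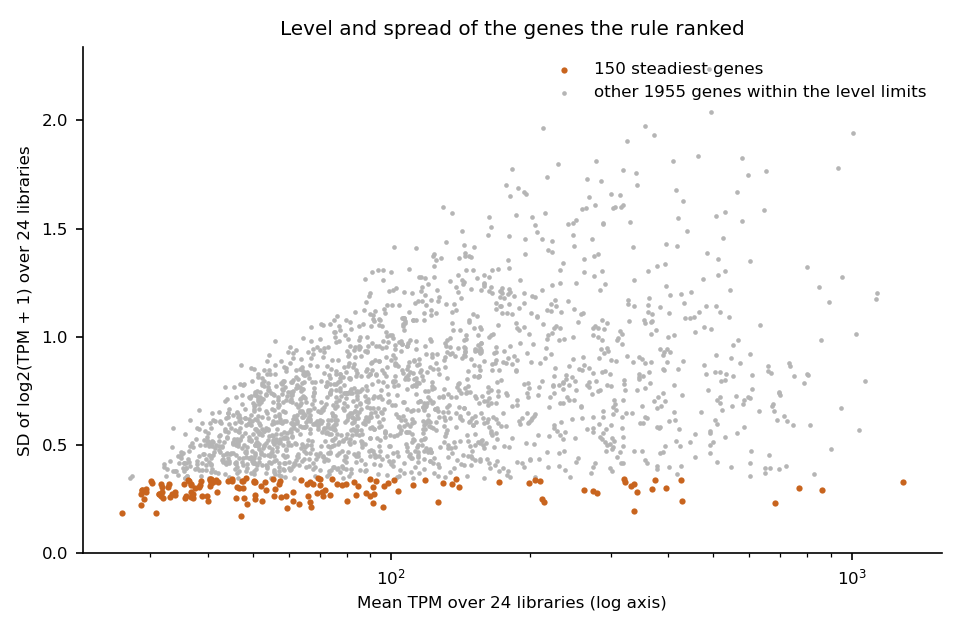
Mean TPM over 24 libraries (log axis) against the SD of log2(TPM + 1) over the same libraries, with 1 point per gene for the 150 steadiest genes and the other 1955 genes within the level limits. The 150 genes fill the lowest band, up to an SD of 0.347, and lie mostly at the low end of the level range. Near that end the limit of 20 TPM in every library leaves room only for genes that vary little.

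The edge of the choice was not a gap. The last genes taken were EdulChr46G00170970, EdulChr13G00056210 and EdulChr30G00121640, with SDs of 0.345, 0.347 and 0.347. The next genes, left out, were EdulChr90G00289690, EdulChr97G00304880 and EdulChr95G00301640, each with an SD of 0.348. The lower limit of 20 TPM cut closely as well, since 34 of the 150 genes came under 25 TPM in some library and the lowest value among them was 20.4 TPM. A further 118 genes with a lowest value between 10 and 20 TPM had an SD no larger than that of the last gene taken.

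Most of the 150 genes were expressed at modest level. Their mean TPM over 24 libraries ran between 26.0 and 1293 with a median of 55.8, and 117 of them (78%) averaged under 100 TPM. Of the other 1955 genes, 961 (49.2%) averaged under 100 TPM, and their median was 102 TPM. The limit of 20 TPM in every library bears on this difference. A gene with a mean near that limit meets it only if it varies little, so nothing is read from the low levels. Only 4 of the 150 averaged 500 TPM or more, and the highest of them, EdulChr38G00145570, held 7.69% of the TPM that the 150 genes summed to.

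The levels of single genes that follow, and the order of their groups, are of TPM as deposited. TPM is a share of a fixed total, so the values were also divided by a size factor per library (median-of-ratios scaling, described further on), which raises wild maturity most. On that scale wild maturity was the highest group for 126 of the 150 genes, whatever their order of groups as deposited. Scaled values are given beside part of the named genes only. Where none is given, an even level may not hold and the order of groups may turn as well. The order does turn in EdulChr43G00163630 and EdulChr54G00193800.

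EdulChr57G00202660 had the smallest SD of all, 0.173, around a mean of 47.1 TPM. In cultivated corms it stood at 44.4, 45.7 and 41.9 TPM at initial swelling, 46.2, 47.5 and 50.5 at middle swelling, 50.1, 54.4 and 54.6 at late swelling and 40.1, 45.9 and 37.4 at maturity. In wild corms it stood at 38.2, 40.5 and 43.8 TPM at initial swelling, 57.8, 52.9 and 57.6 at middle swelling, 40.8, 47.5 and 45.9 at late swelling and 50.4, 46.6 and 49.4 at maturity. Its lowest value came from a cultivated maturity library and its highest from a wild middle library, a ratio of 1.55. The replicates of a group carried more of this small spread than in nearly all other chosen genes: 81.2% of its variance lay between the 8 groups, a share that only EdulChr6G00029140 and EdulChr14G00060360 undercut.

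The next 3 genes by SD were EdulChr32G00126500 (0.185), EdulChr111G00334590 (0.185) and EdulChr6G00025700 (0.198). Together with EdulChr57G00202660 and EdulChr94G00299070 they were the 5 genes that were also among the 150 steadiest both on the cultivated libraries alone and on the wild libraries alone. EdulChr32G00126500 lay between 29.3 and 37.6 TPM in the 12 cultivated libraries and between 23.1 and 34.9 TPM in the 12 wild ones, highest at middle swelling in cultivated corms and at maturity in wild corms. EdulChr111G00334590, also the gene of the lowest mean among the 150 (26.0 TPM), lay between 21.1 and 26.4 TPM in cultivated corms, where its SD of 0.0917 was the smallest of the 150. In wild corms it lay between 23.4 and 35.5 TPM, with the 3 middle swelling libraries above the rest. Both descriptions held as deposited only. Scaled, it averaged 16.6 ± 0.987 at initial swelling and 27.4 ± 0.932 at maturity in cultivated corms (SD, n = 3 each). In wild corms it was then highest at maturity, at 45.1 ± 2.16, against 26.4 ± 1.29 at middle swelling.

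EdulChr6G00025700 was the only gene of the 10 steadiest with a mean over 100 TPM (336 TPM). Its cultivated libraries read 345, 345 and 301 TPM at initial swelling, 271, 279 and 269 at middle swelling, 356, 345 and 348 at late swelling and 292, 305 and 272 at maturity. Its wild libraries read 432, 424 and 421 TPM at initial swelling, 359.8, 345 and 347 at middle swelling, 301, 307 and 318 at late swelling and 360.5, 359 and 366 at maturity. Cultivated corms were below wild corms at initial swelling, middle swelling and maturity and above them at late swelling, at each stage with no overlap of the libraries. After scaling it averaged 269 ± 4.66 in cultivated and 389.9 ± 11.2 in wild corms at late swelling (SD, n = 3 each), so that the order at that stage turned. At middle swelling the scaled gap was within the SDs, with 272.5 ± 6.07 in cultivated and 275.5 ± 4.81 in wild corms.

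The other genes of the 10 steadiest drew different profiles. EdulChr25G00101780 stayed within 50 to 62.8 TPM over all 12 cultivated libraries, while in wild corms it stood at 72.8, 77.7 and 78.2 TPM at middle swelling and 48.1, 48.3 and 43.3 TPM at maturity. Scaled, it averaged 38.2 ± 1.99 at initial swelling and 64.1 ± 2.45 at maturity in cultivated corms (SD, n = 3 each). In wild corms the scaled order turned, with 60.0 ± 2.66 at middle swelling and 86.2 ± 5.41 at maturity. EdulChr43G00163080 was highest at middle swelling in cultivated corms (116, 119 and 114 TPM), and in wild corms the maturity libraries (76.4, 74.3 and 71.6 TPM) lay under the initial ones (109, 115 and 115 TPM). After scaling the wild order turned, with 137 ± 4.17 at maturity and 92.9 ± 1.96 at initial swelling (SD, n = 3 each). EdulChr43G00163630 was highest at initial swelling in cultivated corms (86.8, 94.4 and 79.9 TPM). EdulChr64G00221910, among the 3 genes of lowest mean (28.6 TPM), ran between 21.9 and 36.3 TPM, with its top at cultivated middle swelling and its floor at cultivated maturity.

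EdulChr40G00151940, with an SD among the 10 smallest (0.227), had the tightest replicates of the 150, with a replicate SD of 0.0312 (log2). Cultivated corms gave 78.0, 78.9 and 73.8 TPM at initial swelling, 68.7, 70.1 and 66.8 at middle swelling, 62.5, 60.8 and 62.8 at late swelling and 49.3, 50.5 and 50.5 at maturity. Wild corms gave 70.3, 70.2 and 72.9 TPM at initial swelling, 68.9, 69.3 and 72.2 at middle swelling, 55.6, 54.2 and 55.4 at late swelling and 50.8, 50.5 and 49.6 at maturity. Its group means were lower at each later stage in both origins, with wild initial and wild middle swelling close together, and 93.4% of its variance lay between stages, the largest such share among the 150. EdulChr93G00297450 (0.229) stood at 45.5, 49.7 and 46.2 TPM in cultivated maturity corms, against 56.9, 55.5 and 50.8 TPM in cultivated initial corms. It stood at 34.9, 34.2 and 35.6 TPM in wild maturity corms, against 45.0, 43.7 and 45.5 TPM in wild initial corms. The differences of both genes turn under median-of-ratios scaling, taken up below: maturity minus initial was 0.09 in cultivated and 0.66 in wild corms in EdulChr40G00151940, and 0.49 and 0.79 in EdulChr93G00297450.

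**Figure D2:**
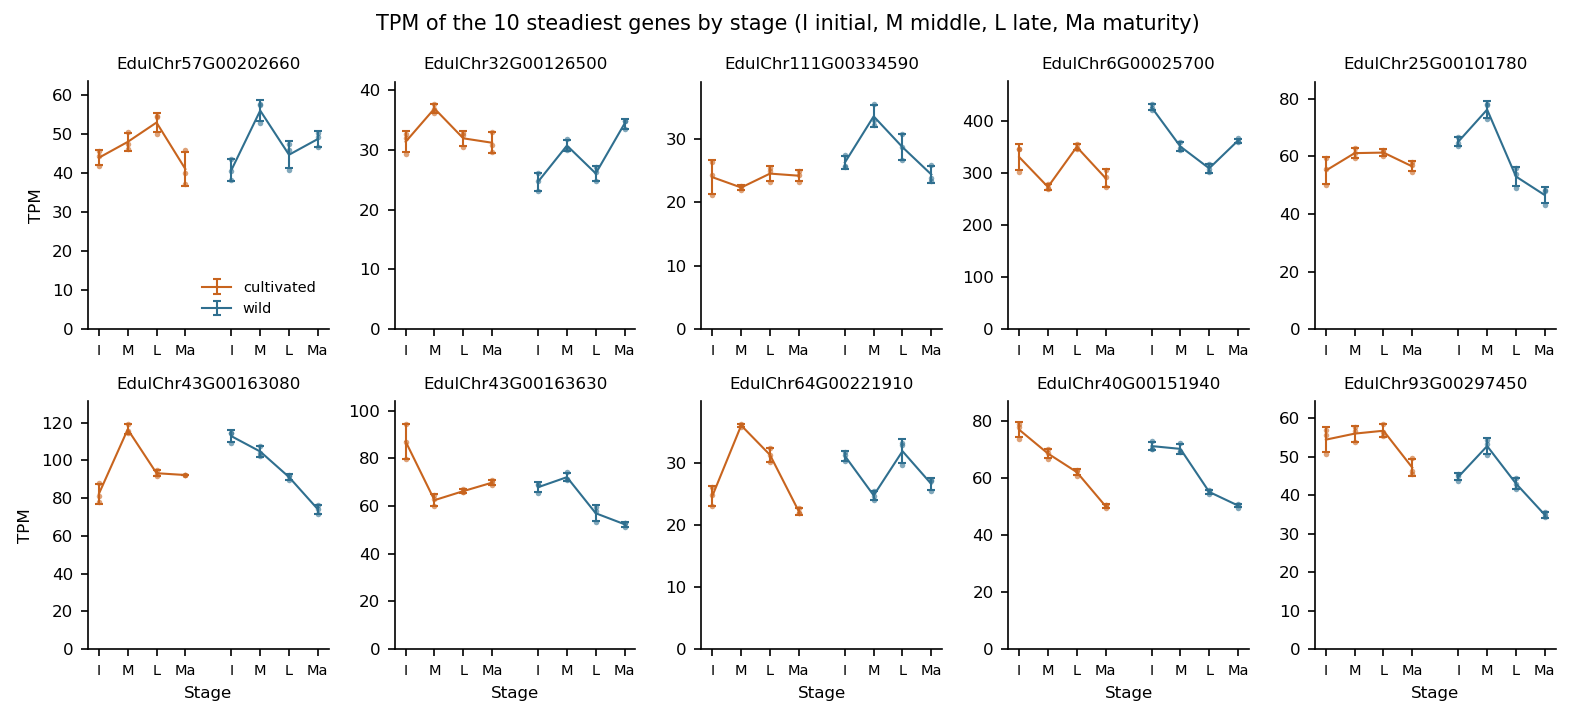
TPM of the 10 genes with the smallest SD, 1 panel each, by stage (I initial, M middle, L late, Ma maturity) in cultivated corms on the left of a panel and wild corms on the right. Points are libraries and lines join group means with their SD (n = 3). All panels start at 0, and no line crosses more than a modest part of its axis, while the direction of the small changes differs from gene to gene.

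At the upper end, EdulChr38G00145570 averaged 1293 TPM. In cultivated corms it stood at 1231, 1219 and 1105 TPM at initial swelling, 1893, 1946 and 1699 at middle swelling, 1431, 1437 and 1471 at late swelling and 1478, 1372 and 1533 at maturity. In wild corms it stood at 1032, 1079 and 1107 TPM at initial swelling, 1241, 1286 and 1170 at middle swelling, 1314, 1266 and 1206 at late swelling and 830.0, 839 and 837 at maturity. Its cultivated middle swelling libraries were its highest and its wild maturity libraries its lowest, and its highest group mean of 1846 TPM came near the limit of 2000 TPM. After scaling its wild maturity libraries averaged 1547 ± 21.7 and its cultivated initial libraries, then the lowest group, 823 ± 14.2 (SD, n = 3 each). EdulChr54G00193800 (mean 864 TPM) was highest at cultivated initial swelling, with 1248, 1199 and 1153 TPM, and lowest at wild middle swelling, with 630.3, 640.3 and 713 TPM. EdulChr7G00033460 (mean 768 TPM) stood at 653, 622 and 630.1 TPM in cultivated maturity corms, against 869, 910.1 and 775 TPM in cultivated initial corms. It stood at 583, 529.9 and 509 TPM in wild maturity corms, against 906, 892 and 839 TPM in wild initial corms. After scaling, its difference was 0.28 in cultivated and 0.47 in wild corms.

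A small SD over the 24 libraries can come with small distances between groups, with tight replicates, or with both. The replicate SD of the 150 genes had a median of 0.0684 (log2), close to the 0.0679 of the other 1955 genes, and 136 of the 150 had a replicate SD under 0.1. The replicate SD came to a median of 0.233 of a chosen gene's whole SD. The group means of the 150 genes spanned a median of 0.88 log2 units, against 2.00 for the other 1955 genes. Group differences still made up most of what was left: a median of 96.2% of a chosen gene's variance lay between the 8 groups, and the share was over 90% in 139 of the 150. The other 1955 genes had a median of 99.3%.

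The genes with the largest share between groups were EdulChr4G00018700, EdulChr18G00073470 and EdulChr78G00261260, at 99.1% each. In EdulChr78G00261260 the wild middle swelling libraries stood at 55.4, 56.0 and 56.9 TPM and the wild late swelling libraries at 28.6, 30.8 and 28.4 TPM, with no overlap and tight replicates. In EdulChr18G00073470 the cultivated maturity libraries stood at 82.4, 83.7 and 88.5 TPM and the wild maturity libraries at 42.6, 42.2 and 43.2 TPM. Scaling narrows the gaps of both genes. The mean size factors were 1.27 at wild middle and 0.79 at wild late swelling. At maturity they were 0.88 in cultivated and 0.54 in wild corms. The smallest share, 68.1%, belonged to EdulChr6G00029140, whose wild initial libraries read 118, 111 and 66.9 TPM, so that replicate 3 stood well under replicates 1 and 2. EdulChr14G00060360 followed with 77.9%, and its wild late swelling libraries read 107, 168 and 142 TPM.

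The remaining variance of the 150 genes lay less between origins than in the other genes of the level range. A median of 10.7% of a chosen gene's variance lay between cultivated and wild corms over all stages, against 35.5% in the other 1955 genes. Stage held a median of 42.4%, against 35.6%, and the part in which the origins followed different stage profiles held 33.8%, against 18.6%. Stage was the largest part in 83 of the 150 genes, the differing stage profiles in 51 and origin in 16. Of the other 1955 genes, 804 had stage, 287 the differing stage profiles and 863 origin as the largest part. These shares come from the values that chose the genes and carry no test.

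**Figure D3:**
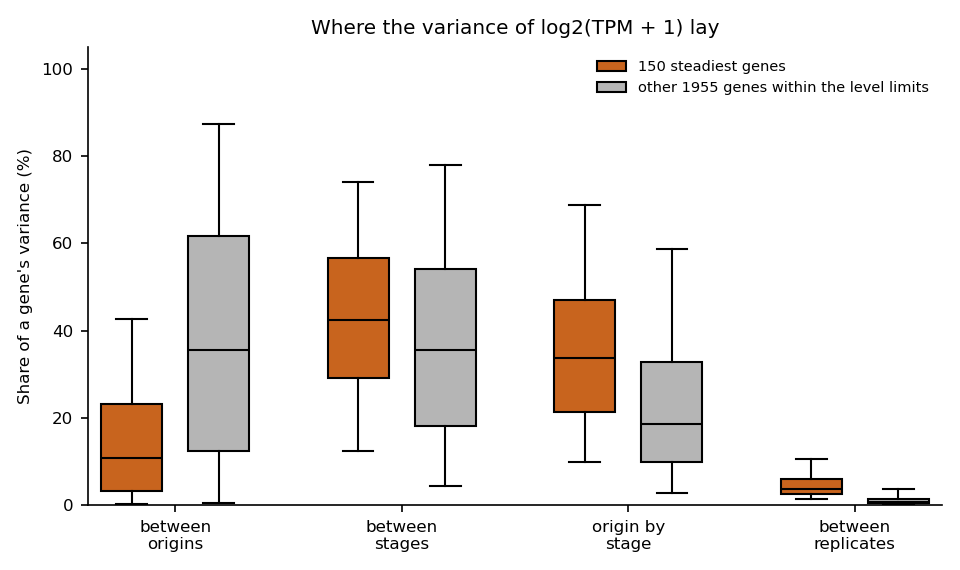
Share of a gene's variance of log2(TPM + 1), in percent, that lay between origins, between stages, in the origin-by-stage part and between replicates, for the 150 steadiest genes on the left of each pair and the other 1955 genes within the level limits on the right. Boxes span the quartiles with the median as a line, and whiskers run between the 5th and 95th percentiles; the origin box of the 150 genes sits low, with a median of 10.7%.

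Genes steady in either origin alone were mostly other genes. Ranked on the 12 cultivated libraries alone, the 150 steadiest genes held 39 of the genes described here, and ranked on the 12 wild libraries alone they held 34. Of the 150 genes, 82 were in neither list. The cultivated and the wild lists shared 14 genes, 9.33% of each list. Libraries of the other origin entered each of these choices through the level limits only. The genes steadiest in cultivated corms had a median SD of 0.448 in wild libraries, against 0.505 for all 2105 genes of the level range. The genes steadiest in wild corms had a median SD of 0.385 in cultivated libraries, against 0.424 for all 2105 genes.

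A list of 150 chosen on replicates 1 and 2 alone held 141 of the 150 genes. Replicate 3 comes from the same 8 groups, between which most of the variance lay, and entered the level limits, so that this is no independent check. Within origins, the 150 genes had a median SD of 0.252 over cultivated libraries and 0.278 over wild libraries, where the other 1955 genes had 0.444 and 0.522. Wild corms gave the larger SD in 95 of the 150 genes, and in 1144 of the other 1955.

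Maturity against initial swelling asks how the end of swelling differs from its start. Of the 150 genes, 34 were called higher and 86 lower in cultivated maturity corms, against cultivated initial corms, where limma calls over all 27050 genes tested came to 20.6% higher and 64.8% lower. In wild corms 27 were called higher and 93 lower at maturity, against 11.4% and 76.9% of all genes tested. Calls of at least 2-fold were made for 2 of the 150 genes in cultivated corms and 4 in wild corms, against 43.9% and 50.7% of all genes tested. A call means a Benjamini-Hochberg adjusted p under 0.05. The choice used these contrasts, so that the counts are set beside the shares of all genes and nothing is read from them.

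The median difference of the 150 genes, maturity minus initial, was -0.18 (log2) in cultivated corms and -0.29 in wild corms. The medians of all genes tested were -0.61 and -0.90. The 150 genes thus stood 0.43 and 0.61 above the median of all genes. Genes chosen for a small SD have differences near 0 by that choice, so nothing is read from these distances. In 58 of the 150 genes both origins were called lower at maturity, in 10 both were called higher and in 28 the origins were called in opposite directions, beside 54.6%, 5.32% and 16.6% of all genes tested. The difference itself was called to depend on origin in 109 of the 150, beside 79.4%.

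The widest stage difference among the 150 genes was in EdulChr44G00166270, at -1.20 (log2, maturity minus initial in cultivated corms). It stood at 58.2, 62.4 and 56.9 TPM in cultivated maturity corms, against 147, 137 and 129.7 TPM in cultivated initial corms, with no overlap. All 12 wild libraries of this gene lay between 70.3 and 81.3 TPM, an SD of 0.0698 that was the smallest of any of the 150 genes in wild corms. That evenness held as deposited only: scaled, wild corms averaged 60.3 ± 2.25 at initial swelling, 63.1 ± 0.743 at middle swelling, 97.2 ± 5.69 at late swelling and 147 ± 4.59 at maturity (SD, n = 3 each). EdulChr5G00023410 was alike, at -0.99, with 73.2, 78.4 and 74.5 TPM in cultivated maturity corms, against 155, 157 and 140.3 TPM in cultivated initial corms. Its wild libraries lay between 81.5 and 107 TPM. After scaling, these differences came to -0.51 in EdulChr44G00166270 and -0.29 in EdulChr5G00023410. As deposited, the 3 cultivated initial libraries stood above every other library in both genes, with replicate 3 the lowest of the 3. Scaled, wild maturity stood above cultivated initial swelling in both, and in EdulChr5G00023410 it averaged 158 ± 5.04, against 104.8 ± 1.07 (SD, n = 3 each).

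In the other direction, EdulChr5G00024140 differed by 1.07 in cultivated corms and stood at 27.0, 28.7 and 25.2 TPM at initial swelling, 34.6, 39.1 and 39.1 at middle swelling, 48.0, 48.6 and 51.3 at late swelling and 58.2, 55.6 and 58.9 at maturity. In wild corms the same gene stood at 45.2, 48.3 and 45.0 TPM at maturity, against 33.0, 31.5 and 33.8 TPM at initial swelling, a difference of 0.48. EdulChr14G00060360 differed by 0.84 in cultivated corms, with 115, 147 and 114 TPM at maturity, against 77.7, 59.7 and 70.7 TPM at initial swelling. In wild corms it differed by 0.14, with 118, 128 and 117 TPM at maturity, against 111, 116 and 102 TPM at initial swelling. After scaling, EdulChr5G00024140 differed by 1.75 in cultivated and 1.63 in wild corms, and EdulChr14G00060360 by 1.54 and 1.30.

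In wild corms the most positive difference was that of EdulChr4G00018700, at 0.88. Its wild group means were higher at each later stage, with 27.8, 26.9 and 29.2 TPM at initial swelling, 32.9, 32.0 and 34.0 at middle swelling, 43.9, 43.0 and 43.5 at late swelling and 52.3, 51.9 and 52.2 at maturity. In cultivated corms it was highest at late swelling (43.7, 43.2 and 42.9 TPM) and stood at 31.3, 31.6 and 34.5 TPM at maturity. EdulChr42G00158350 differed by 0.76 in wild corms and was highest in the wild maturity libraries, at 58.7, 54.7 and 51.3 TPM. Its wild late swelling libraries, at 26.6, 23.7 and 24.9 TPM, were its lowest as deposited. After scaling, the wild difference was 2.02 in EdulChr4G00018700 and 1.90 in EdulChr42G00158350.

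The most negative wild differences were -1.12 in EdulChr49G00180610 and -1.09 in EdulChr8G00038110. EdulChr49G00180610 had a lower wild group mean at each later stage, with 332, 315 and 307 TPM at initial swelling, 256, 254 and 241 at middle swelling, 189, 205 and 197 at late swelling and 132, 149 and 157 at maturity. Its cultivated libraries kept between 164 and 217 TPM. EdulChr8G00038110 stood at 139.9, 137 and 142 TPM in wild maturity corms, against 309.6, 296 and 291 TPM in wild initial corms, and between 151.4 and 226 TPM in cultivated corms. Under median-of-ratios scaling, described below, the wild differences of these genes came to 0.04 and 0.07.

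For origin, the question is how cultivated corms differ from wild corms at matched stages. Averaged over stages, 75 of the 150 genes were called higher and 52 lower in cultivated corms, against 47.1% and 46.2% of all genes tested, and 0 of the 150 were called with a 2-fold difference, against 42.3%. The widest such difference among the 150 was -0.51 (log2). At initial swelling 55 were called higher and 60 lower, beside 46.8% and 39.4% of all genes. At middle swelling the counts were 41 and 76, beside 31.7% and 58.0%. Late swelling gave 102 higher and 23 lower, beside 50.9% and 37.6%, and maturity gave 61 and 50, beside 48.9% and 29.0%. The median difference of the 150 genes, cultivated minus wild, was -0.01 at initial swelling, -0.15 at middle swelling, 0.27 at late swelling and 0.03 at maturity (log2). The medians of all genes tested were 0.12, -0.53, 0.26 and 0.20 at the same stages. The choice used these contrasts too, so nothing is read from the counts or the medians.

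The gene with the most positive difference for cultivated corms was EdulChr23G00092570, at 0.47 (log2, mean over stages). It ran between 46.0 and 77.5 TPM in cultivated corms and between 35.2 and 58.6 TPM in wild corms. EdulChr94G00299070 differed by 0.45 with no overlap as deposited. Its cultivated libraries read 95.7, 98.8 and 88.3 TPM at initial swelling, 116, 112 and 123 at middle swelling, 108, 113 and 115 at late swelling and 87.4, 103 and 86.9 at maturity. Its wild libraries read 74.1, 76.3 and 77.1 TPM at initial swelling, 79.97, 78.6 and 77.0 at middle swelling, 65.4, 73.3 and 68.9 at late swelling and 79.2, 76.5 and 78.7 at maturity. Of the 150 genes it had the largest share of variance between origins, 74.7%. EdulChr105G00321960 also differed by 0.45, with 94.8, 88.9 and 85.6 TPM in cultivated initial corms and 52.6, 65.5 and 55.2 TPM in wild initial corms, while at maturity cultivated corms (58.0, 59.3 and 50.5 TPM) and wild corms (60.6, 57.6 and 59.1 TPM) overlapped. After scaling, the differences of these 3 genes were 0.14, 0.12 and 0.12. In EdulChr94G00299070 the scaled order turned at maturity, with 104.8 ± 9.58 in cultivated and 145 ± 1.49 in wild corms (SD, n = 3 each). In EdulChr23G00092570 it turned at late swelling (58.0 ± 1.40 in cultivated, 67.4 ± 6.56 in wild) and at maturity (55.1 ± 3.11 and 67.5 ± 3.18). In EdulChr105G00321960 scaled maturity no longer overlapped, with 63.4 ± 5.37 in cultivated and 109 ± 1.87 in wild corms.

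EdulChr90G00290060 had the most negative difference, -0.51. It ran between 30.6 and 42.1 TPM in cultivated corms, against 66.2, 59.6 and 65.5 TPM at wild initial swelling and 39.2, 41.0 and 39.9 TPM at wild maturity. EdulChr18G00075320 (-0.45) and EdulChr36G00141110 (-0.43) had the same shape, and scaling widened the 3 differences to -0.84, -0.78 and -0.76. EdulChr36G00141110 stood at 102, 99.95 and 93.3 TPM in cultivated initial corms and 162, 157 and 156 TPM in wild initial corms. At maturity it stood at 90.1, 90.2 and 90.7 TPM in cultivated corms and 91.8, 92.9 and 95.3 TPM in wild corms, a far smaller gap. Scaled, that narrowing was mostly gone: maturity averaged 102 ± 1.147 in cultivated and 173 ± 3.94 in wild corms, and initial swelling 68.4 ± 1.59 and 130.4 ± 3.69 (SD, n = 3 each). EdulChr80G00263660, among the lowest genes by mean (28.6 TPM), differed by -0.39, and overlapped between origins at late swelling only.

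Over all groups at once, limma called 150 of the 150 genes different in at least 1 of the 8 groups, beside 99.5% of all genes tested. Any stage difference was called for 146 of the 150 in cultivated corms, beside 93.8%, and for 98.7% of them in wild corms, beside 96.3%. A stage profile that differed between origins was called for 98.7% of the 150 genes, beside 97.9%. In EdulChr57G00202660, the gene of the smallest SD, the highest group (wild middle swelling) and the lowest (wild initial swelling) did not overlap as deposited. These groups were picked as the extremes of the 8, so nothing is read from that. Scaled, the extremes were wild maturity (90.3 ± 2.86) and cultivated initial swelling (30.6 ± 0.370; SD, n = 3 each).

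The libraries shared part of what was left. Summed over the 150 genes, cultivated corms held 17823 ± 1092 TPM at initial swelling, 17409 ± 253 at middle swelling, 18131 ± 159 at late swelling and 15372 ± 165 at maturity (SD, n = 3 each). Wild corms held 18385 ± 135 TPM at initial swelling, 17806 ± 159 at middle swelling, 15161 ± 264 at late swelling and 14394 ± 109 at maturity (SD, n = 3 each). The sum came to 1.43 to 1.85% of a library's TPM. Maturity was the lowest stage in both origins, and the late swelling libraries of wild corms already lay near that level while those of cultivated corms did not.

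TPM is a share of a fixed total, so that transcripts which take a large share lower every other gene. The median deviation of the 150 genes from their own means ran between -0.22 and 0.18 (log2) over the 24 libraries, lowest at wild maturity and highest at cultivated late swelling, while that of all genes tested ran between -0.66 and 0.42. Wild maturity, the group in which the 10 highest genes held 42.1 to 42.4% of the TPM, was the lowest group for 49 of the 150 genes (32.7%) and for 29.6% of the other 1955 genes. When the 10 genes of highest mean TPM were removed and the rest rescaled, the median difference of the 150 genes, maturity minus initial, was 0.20 in cultivated corms and 0.39 in wild corms, of the opposite sign to the values as deposited. In that setting 73 of the 150 genes were chosen again.

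**Figure D4:**
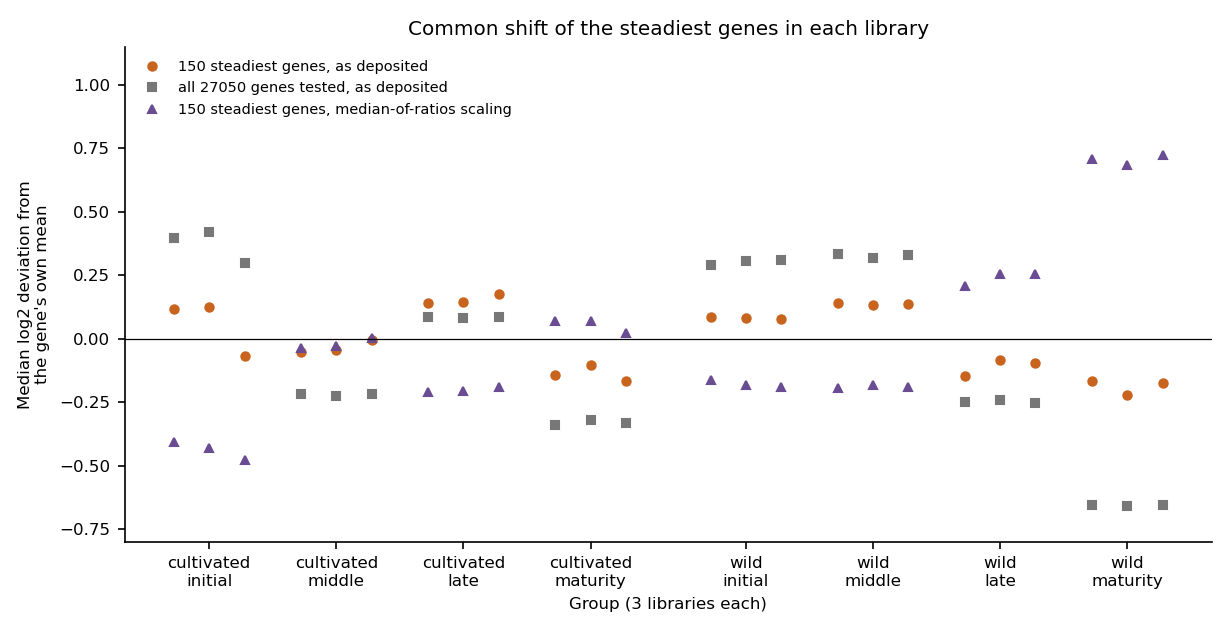
Median log2 deviation of genes from their own mean over 24 libraries, for each library, in groups of 3 along the axis with cultivated stages left of wild stages. Orange circles show the 150 steadiest genes as deposited (-0.22 to 0.18), grey squares all 27050 genes tested as deposited (-0.66 to 0.42) and purple triangles the 150 genes after median-of-ratios scaling (-0.48 to 0.72). The circles have the narrowest range of the 3.

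Median-of-ratios scaling divides each library by a size factor, here the median ratio to the gene's geometric mean over the 21528 genes above 0 in all libraries. The factors ran between 0.535 in a wild maturity library and 1.499 in a cultivated initial library. On that scale the median difference of all genes tested, maturity minus initial, was -0.12 in cultivated corms and -0.14 in wild corms, against -0.61 and -0.90 as deposited. The 150 genes had medians of 0.52 in cultivated corms and 0.86 in wild corms, so that their sign turned, and they stood 0.64 and 1.00 above the median of all genes. The choice held the differences of the 150 genes small as deposited, so nothing is read from the turn or from these distances. Cultivated minus wild, their median was -0.27 scaled and 0.06 as deposited.

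The limma calls turned with it. After scaling, 124 of the 150 genes were called higher and 6 lower at maturity in cultivated corms, beside 36.1% and 45.6% of all genes tested. In wild corms 147 were called higher and 0 lower, beside 35.6% and 47.0%, and all 150 differences were positive, with 0.04 the smallest. Of the 150, 60 in cultivated corms and 90 in wild corms were called on both scales with opposite signs. The mean log2 size factor was 0.28 at wild initial swelling and -0.89 at wild maturity. The lowest wild difference of the 150 genes as deposited was -1.12. Genes chosen for even values as deposited take up the size factors once scaled, so nothing is read from these counts.

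Between origins and averaged over stages, the scaled values gave 10 calls of higher and 127 of lower for cultivated corms among the 150 genes, beside 39.7% and 53.2% of all genes. At initial swelling the scaled counts were 29 and 95, beside 39.9% and 45.0%, and at middle swelling 87 and 37, beside 37.6% and 51.5%. Late swelling gave 9 and 124, beside 37.9% and 49.6%, and maturity 3 and 135, beside 36.5% and 44.1%. Wild maturity was the highest group for 126 of the 150 genes after scaling (84%), against 29.1% of the other 1955 genes. Cultivated initial swelling was the lowest group for 73 (48.7%), against 23.1%. These were the groups with the smallest and the largest size factors, so nothing is read from these counts either.

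Which genes were steadiest also depended on the scale. Ranked by the SD of scaled values, with the same level limits, 18 of the 150 genes (12%) were chosen again. The scaled values put 129 of the 150 within the level limits of a range that then held 2212 genes, where their median rank was 477 and their last rank 1402. The SD of the 150 genes had a median of 0.420 scaled and 0.302 as deposited, and it was larger after scaling in 130 of the 150. Of the other 1955 genes, 1088 (55.7%) had a smaller SD after scaling. A shift common to all 150 genes of a library held 16.2% of their variance as deposited and 61.3% after scaling. Genes chosen for even values as deposited take up a library's size factor together. Nothing is therefore read from that rise or from their larger SDs.

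**Figure D5:**
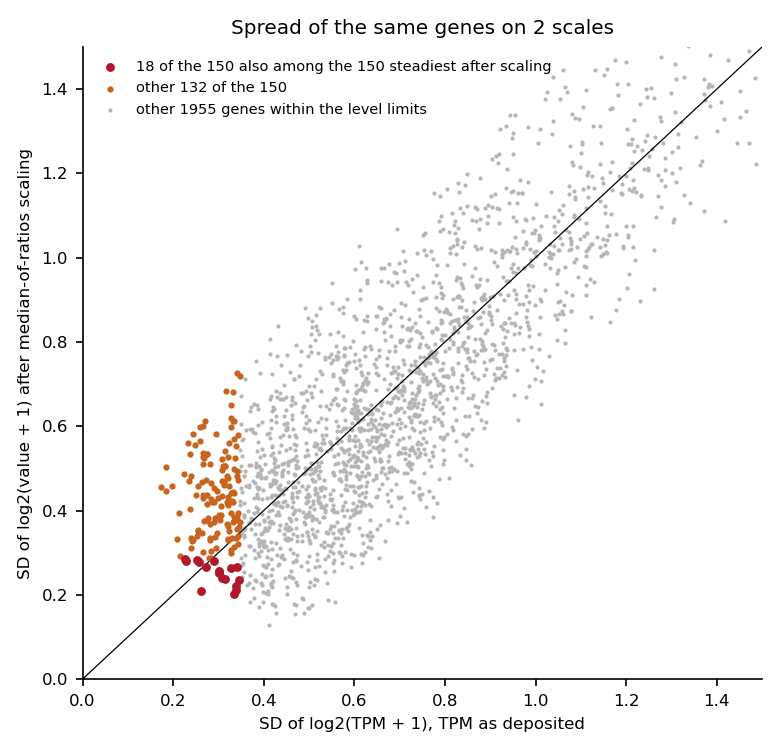
SD of log2(TPM + 1) over 24 libraries with TPM as deposited (horizontal axis) against the SD after median-of-ratios scaling (vertical axis), 1 point per gene; the line marks equal values, and 83 genes beyond 1.5 on either axis are not drawn. Of the 150 steadiest genes, 130 lie above the line, and the 18 that were also among the 150 steadiest after scaling lie near the bottom left corner.

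The 18 genes chosen on both scales were picked out after their values were seen. Among the 10 steadiest as deposited, EdulChr40G00151940 and EdulChr93G00297450 belonged to them, and EdulChr7G00033460 was the most abundant of them. The others were EdulChr43G00162760, EdulChr59G00205880, EdulChr100G00312850, EdulChr17G00062610, EdulChr67G00228330, EdulChr60G00208250, EdulChr83G00271630, EdulChr100G00312470, EdulChr100G00312520, EdulChr15G00068030, EdulChr59G00207830, EdulChr61G00212650, EdulChr11G00049440, EdulChr32G00128270 and EdulChr13G00055680. EdulChr100G00312850 ranked well on both, with an SD of 0.262 as deposited and 0.208 scaled. Cultivated corms gave 65.3, 67.2 and 61.3 TPM at initial swelling, 57.9, 56.8 and 60.9 at middle swelling, 66.9, 68.1 and 68.2 at late swelling and 48.1, 52.7 and 49.2 at maturity (as deposited). Wild corms gave 65.7, 63.2 and 63.1 TPM at initial swelling, 64.8, 69.2 and 68.7 at middle swelling, 43.0, 51.0 and 49.6 at late swelling and 42.1, 40.7 and 39.2 at maturity. Its 3 wild maturity libraries were its lowest as deposited. Scaling turned its maturity minus initial difference, from -0.36 to 0.33 in cultivated and from -0.64 to 0.51 in wild corms. EdulChr57G00202660, the steadiest gene as deposited, ranked 650 after scaling.

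The identifiers are the one property at hand that the choice did not use beyond the prefix. The number after the prefix took 111 values among all genes and 81 among the 150, with 37 of them given to a single chosen gene and at most 5 chosen genes under any of them, the number carried by 466 genes in all. In identifier order, 7 of the 150 were within 10 places of the next chosen gene. Only EdulChr23G00092570 and EdulChr23G00092580 were next to each other in identifier order, and EdulChr61G00212650 and EdulChr61G00212670 were 2 places apart. EdulChr23G00092580 ran between 27.7 and 46.1 TPM in cultivated corms and between 32.2 and 57.3 TPM in wild corms, a mean difference of -0.33 (log2) as deposited and -0.66 scaled, where its neighbour differed by 0.47 and 0.14. EdulChr61G00212670 averaged 50.5 TPM and EdulChr61G00212650 205 TPM. No table used here gives their positions in the genome.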

How the data were processed

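The series design names the DNBSEQ-T7 as the sequencer of the 24 corm RNA libraries. The authors deposited 1 table of TPM values, rounded to 2 decimals. The submitters' processing notes list the tools HISAT2 2.0.4, StringTie 2.1.6 and DESeq2 and say nothing of their roles. No genome build, annotation or filter is given in the sources used here. The 24 columns were matched to samples by the origin, stage and replicate number in the titles, and 0 columns were left over. Where nothing says otherwise, the labels' biological replicates may share a plant or plot, and p-values then measure the spread between these samples.

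The fit took log2(TPM + 1) values of the 27050 genes that reached a TPM of 1 in 3 or more libraries, and was made in limma 3.58.1 under R 4.3.3 (8 group means in 1 fit, eBayes with trend, Benjamini-Hochberg adjustment over all of them), after a check on simulated data. All 150 genes were among those tested. Differences are between mean log2(TPM + 1) values, which understates changes of low genes. Variance shares split each gene's sum of squares into origin, stage, origin by stage and replicates. Descriptive values used Python 3.11.15 with pandas 2.3.3.

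The 150 genes and the lists were chosen with earlier results of these data known. Named genes were the 10 with the smallest SD, the 3 with the highest and the 3 with the lowest mean, the 3 most positive and 3 most negative origin differences, the 2 most positive and 2 most negative stage differences in each origin, the 3 largest and 3 smallest between-group shares, and 3 genes on each side of the last rank. Lists of usual reference gene families were not used, because no table used here pairs identifiers with names. Alternatives changed the scaling, pseudocount, filter, level limits, measure of spread, libraries and replicate block.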

Additional observations from a re-analysis of the deposited data

Results flagged for a closer look

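Differences between the origins were what singled out the following results. By limma's interaction test, 98.7% of the 150 genes had a stage profile that differed between cultivated and wild corms, beside 97.9% of all genes tested. In 109 of the 150 (72.7%) the change between initial swelling and maturity differed, beside 79.4% of all genes tested (adjusted p under 0.05). Neither is read as a trait of the 150 genes. The choice of the genes used these contrasts.

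The difference in that change, cultivated minus wild (log2), was 0.59 in EdulChr5G00024140, 0.70 in EdulChr14G00060360, 1.21 in EdulChr49G00180610 and 1.13 in EdulChr8G00038110. It was -1.32 in EdulChr44G00166270, -1.05 in EdulChr5G00023410, -0.98 in EdulChr42G00158350 and -0.47 in EdulChr4G00018700.

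After median-of-ratios scaling, given as values with no test, the differences came to 0.12 in EdulChr5G00024140, 0.23 in EdulChr14G00060360, 0.75 in EdulChr49G00180610 and 0.66 in EdulChr8G00038110. They were -1.78 in EdulChr44G00166270, -1.50 in EdulChr5G00023410, -1.44 in EdulChr42G00158350 and -0.94 in EdulChr4G00018700. These genes were named for their large change in either origin.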

How the results depend on the processing

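Of the 150 genes, fewer were chosen again under 8 settings: 18 after median-of-ratios scaling, 28 after that scaling with the level limits applied to values as deposited (chosen after seeing the data), 84 with a TPM minimum of 10, 53 with a minimum of 50, 39 on the 12 cultivated libraries, 34 on the 12 wild libraries, 73 with the 10 highest genes removed, and 78 without the wild maturity libraries (chosen after seeing the data). Other settings kept 106 or more, and leaving out each library in turn kept 139 to 146.

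The median differences of the 150 genes turned in sign under scaling and under removal of the 10 highest genes. Maturity minus initial in cultivated corms became 0.52 under scaling and 0.20 under removal, and in wild corms 0.86 and 0.39. Cultivated minus wild became -0.27 and -0.0048. Leaving out each library gave -0.24 to -0.13 in cultivated corms, -0.31 to -0.28 in wild corms and 0.05 to 0.07 between origins.

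Pooled over both directions, all 329 alternative counts of calls came within 1.5 times the reported ones. By direction they did not: under scaling, 124 were called higher and 6 lower at maturity in cultivated corms, against 34 and 86 as deposited, 147 and 0 in wild corms, against 27 and 93, and 10 and 127 between origins, against 75 and 52. With the replicate block, 109 to 150 of the 150 genes were called, depending on the comparison. Whether replicate numbers pair the samples is not given in the labels, and correlations cannot settle it. Deviations of same-numbered libraries correlated at -0.0053 on average (84 pairs, -0.0875 to 0.168), and those of other numbers at 0.0026. TPM gives no depth, so counting error is unknown.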
